A study of Mus musculus with 6 samples.

Results

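A set of 9 transcription factors that mark the layers of the cerebral cortex, written here as the layer factors, was followed in RNA sequencing of mouse prefrontal cortex (PFC). They were chosen by gene symbol, as 3 factors of upper layers (Cux1, Cux2 and Rorb) and 6 of deep layers (Etv1, Fezf2, Bcl11b, Foxp2, Tle4 and Tbr1), and are 9 of the 54429 symbols in the count files. Each group had 2 libraries, described as biological duplicates of bulk tissue from mice aged 6 months. WT + vehicle mice had the genotype (C57BL/6 x C3H), and Tau + vehicle and Tau + UNC0642 mice were both PS19(P301S). The transgene of this line expresses human tau with the P301S mutation under the mouse prion promoter, which is not restricted to cortical neurons. Per the study's methods, the transgenic mice had a B6C3H/F1 background, and WT and transgenic littermates of both sexes were used. UNC0642, an inhibitor of the H3K9 methyltransferases EHMT1 and EHMT2, was injected at 1 mg/kg daily for 3 days and tissue was studied 24 h later, and the other groups were given the vehicle. No WT group with UNC0642 was analysed here.

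Projection neurons of the cortex are made in sequence, those of the deep layers before those of the upper layers, and sets of transcription factors that partly repress one another fix which targets their axons reach. Layers 2 to 4 hold neurons that connect within the cortex or receive thalamic input, layer 5 holds neurons that project to the spinal cord, brainstem and striatum, and layer 6 holds neurons that project to the thalamus. In the adult many of these factors stay on in the neurons of their layer and are used as layer markers. In bulk tissue, fewer cells of a layer and less RNA per cell cannot be told apart.

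The libraries held 17005664 to 28972176 counts each. Some facts of the libraries bear on the values below. The library labelled WT replicate 1 had a summed level of 10 olfactory bulb markers, chosen after their values were seen, of 325 CPM (counts relative to the library total, scaled by TMM) against 17.6 to 24.2 CPM in the other 5 libraries, and all 10 were highest in it. Its Prnp level, 1652 CPM, lay with the 1470 to 1694 CPM of the 4 transgenic libraries and not with the 873 CPM of WT replicate 2. Mapt was at 576 CPM in the same library, at 570.5 to 614 CPM in the 4 transgenic libraries and at 449 CPM in WT replicate 2. What sets these levels was not tested, and the library was used in each WT comparison as labelled. Tau replicate 2 had the highest level of all 11 striatal projection neuron markers, with a sum of 398 CPM against 178 to 215 CPM elsewhere, and of all 8 oligodendrocyte markers, 5423 against 1431 to 2915 CPM. Xist was at 191 to 317 CPM in WT replicate 2 and both Tau libraries and at 0.118 to 0.197 CPM in the other 3, so that among the Tau mice the drug was given only in libraries of the male pattern. The pyramidal neuron markers Slc17a7 and Camk2a were at 846 CPM or more in all 6 libraries. The targets of the drug, Ehmt1 and Ehmt2, were called in none of the 3 comparisons.

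Upstream sequence was taken from RefSeq (build GRCm38.p6), as the 250 bases before a gene start, and 8 of the 9 factors had such a window. The stretches shown are that of Bcl11b because it was called in both comparisons that use the Tau + vehicle libraries, and that of Rorb because its replicates lay farthest apart in that group. Only bases before the first annotated exon are printed, and capitals mark CCAAT, a promoter box, found on either strand (ATTGG is the same box on the other strand).
Bcl11b, 62 bases on the minus strand at chr12:108003603-108003664: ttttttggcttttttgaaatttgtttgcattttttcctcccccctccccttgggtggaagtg
Rorb, 250 bases on the minus strand at chr19:19111197-19111446: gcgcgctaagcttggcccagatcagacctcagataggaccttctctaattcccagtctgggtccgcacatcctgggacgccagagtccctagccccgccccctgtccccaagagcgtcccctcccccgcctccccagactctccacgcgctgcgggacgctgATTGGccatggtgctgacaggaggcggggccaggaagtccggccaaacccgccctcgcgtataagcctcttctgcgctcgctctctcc
The whole window of Bcl11b was 44.8% G or C with 9 CpG pairs. Rorb had 2 windows, that shown with 66.0% G or C and 18 CpG pairs and one at a start inside the gene with 39.2% and 4 pairs, where the median over 32851 windows was 52.4% and 6 pairs. CCAAT was found in 33.8% of all windows and TAATTA, a core of many homeodomain sites that does not overlap CCAAT, in 4.84%. Neither was found in the Bcl11b window. Among the windows of the factors, only that of Tbr1, which lies within annotated exons and is not printed, held TAATTA, at 2 places. What these sites do was not tested.

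The 9 factors were all expressed in every library, with 402 to 3382 counts per gene and library, and all passed the filter on low counts. Compared per length of annotated exons (RPKM, mean over 6 libraries ± SD), Tle4 was the most abundant at 14.0 ± 1.24, followed by Tbr1 at 13.4 ± 2.03, Bcl11b at 11.8 ± 1.68, Fezf2 at 10.8 ± 1.22 and Cux2 at 9.73 ± 1.96. Rorb was at 7.67 ± 1.5, Etv1 at 4.40 ± 0.409, Cux1 at 4.23 ± 0.368 and Foxp2 was lowest at 1.60 ± 0.287. In this order the ranges over the libraries of neighbouring genes overlapped, except that Rorb lay above Etv1 and Cux1 above Foxp2 in all libraries. The symbol Cux1 also covers the transcript for the Golgi protein CASP, which these gene counts do not separate.

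**Figure D1:**
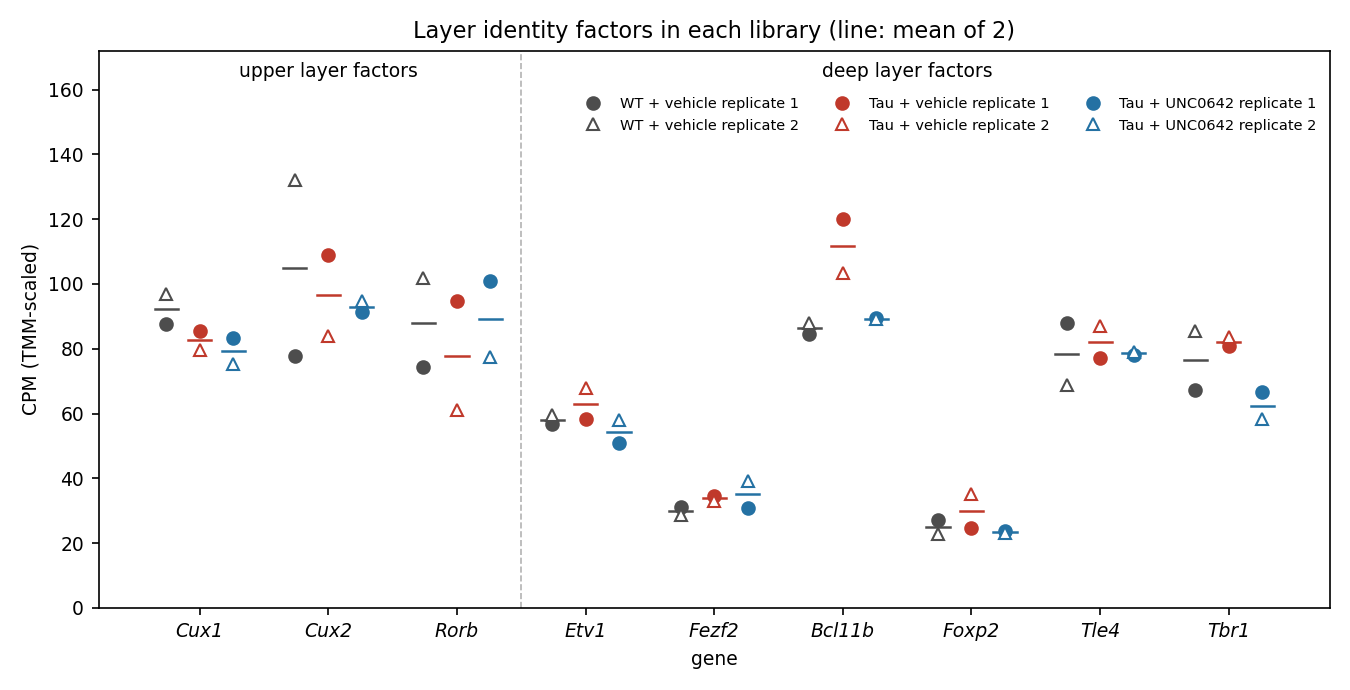
Levels of the 9 layer factors in each library. The y axis is CPM scaled by TMM, the x axis the genes, circles and open triangles are replicates 1 and 2 of each group and the line is their mean. The 2 Tau libraries have the highest Bcl11b levels, 103 and 120.1 CPM. Both UNC0642 libraries have the lowest Tbr1 levels, 66.6 and 58.2 CPM, the first just under the 67.1 CPM of WT replicate 1.

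The first comparison asked how the PFC of P301S Tau mice differs from that of WT mice. One of the 9 factors, Bcl11b, was called, which required an unadjusted p-value below 0.05 with a change of 1.2-fold or more. Of the 20409 genes tested, 9.81% were called, 3.72% higher and 6.1% lower. No factor had an adjusted p-value under 0.05, which 0.157% of all genes had, and no other factor had an unadjusted one under 0.05, which 12.4% had. The fitted log2 fold changes of the 3 upper layer factors were all below 0, from -0.17 to -0.12, and those of the 6 deep layer factors all above 0, from 0.07 to 0.37, but apart from Bcl11b each 95% interval included 0. Over all genes the median log2 fold change was near 0, with quartiles of -0.25 and 0.14.

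Bcl11b (chromosome 12, 107910403 to 108003602, minus strand; all gene positions are from GENCODE M21 for GRCm38) encodes the zinc finger protein CTIP2, which guides corticospinal axons of layer 5 neurons and is also made by striatal projection neurons. It was at 84.4 and 88.1 CPM in WT replicates 1 and 2, at 120.1 and 103 CPM in the Tau libraries, and at 89.3 and 89.1 CPM in the UNC0642 libraries. Both Tau libraries lay above all others, which ranged from 84.4 to 89.3 CPM. Bcl11b rose in Tau mice by 0.37 ± 0.090 on the log2 scale (SE, 95% interval 0.17 to 0.57), with an unadjusted p = 0.00183 and an adjusted p = 0.198 (edgeR, quasi-likelihood). The increase was 0.34 without the library labelled WT replicate 1 and 0.48 without Tau replicate 2. Without Tau replicate 1 it was 0.26, a fold change just under 1.2, so that the call was lost. All 9 striatal markers tested were called higher in this comparison as well, with a median log2 fold change of 0.79, and 3 of 8 oligodendrocyte markers were. Both Tau libraries had higher striatal sums, 215 and 398 CPM in replicates 1 and 2, than the other 4 libraries, at 178 to 194 CPM. The libraries split in the same way for Bcl11b itself. Within the Tau pair the order was the reverse, with Bcl11b higher in replicate 1 and the striatal sum higher in replicate 2. The part of striatal RNA in the Bcl11b levels was not tested.

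Fezf2 (chromosome 14, 12342094 to 12348189, minus strand), a zinc finger factor that directs layer 5 neurons to subcerebral targets and acts upstream of Bcl11b, was at 31.1 and 28.7 CPM in WT, 34.6 and 32.9 CPM in Tau and 30.8 and 39.3 CPM in UNC0642-treated mice. The Tau libraries were above both WT libraries, but the difference, 0.18 ± 0.13 in log2, did not pass the test (adjusted p = 0.596, edgeR). Etv1 (chromosome 12, 38779380 to 38870484, plus strand), an ETS factor of layer 5 neurons, was at 56.7 and 59.6 CPM in WT, 58.2 and 67.7 CPM in Tau and 50.9 and 58.0 CPM in UNC0642-treated mice. Its WT and Tau values overlapped, with a log2 difference of 0.11 ± 0.10.

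The factors of layer 6 overlapped between Tau and WT mice. Foxp2 (chromosome 6, 14901349 to 15441977, plus strand), a forkhead factor of layer 6 that is also made in the striatum and thalamus, was at 27.2 and 22.7 CPM in WT, 24.5 and 35.1 CPM in Tau and 23.8 and 23.2 CPM in UNC0642-treated mice. Its highest value stood alone in Tau replicate 2, the library with the highest striatal and oligodendrocyte markers. The log2 difference of 0.25 ± 0.16 (adjusted p = 0.565, edgeR) was -0.02 without that library and 0.49, and called, without Tau replicate 1. Foxp2 is thus set by which Tau library is read, and the part of the striatal RNA in it was not tested.

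Tle4 (chromosome 19, 14448150 to 14598051, minus strand), a Groucho co-repressor found in corticothalamic neurons, was at 88.0 and 68.8 CPM in WT, 77.2 and 87.0 CPM in Tau and 78.1 and 79.1 CPM in UNC0642-treated mice. The WT replicates bounded all other values, and the log2 difference between Tau and WT was 0.07 ± 0.12. It was 0.25 without the library labelled WT replicate 1, still under the fold limit. Tbr1 (chromosome 2, 61802930 to 61814114, plus strand), a T-box factor that specifies layer 6 neurons and represses Fezf2 and Bcl11b during development, was at 67.1 and 85.6 CPM in WT, 80.9 and 83.5 CPM in Tau and 66.6 and 58.2 CPM in UNC0642-treated mice. The Tau values lay between the 2 WT values, with a log2 difference of 0.11 ± 0.12, which was -0.06 without the library labelled WT replicate 1 and 0.29, and called, without WT replicate 2.

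Of the upper layer factors, Cux2 and Rorb varied most between replicates. Cux2 (chromosome 5, 121856366 to 122050102, minus strand), a cut-like homeodomain factor that shapes dendrites and spines of layer 2 to 4 neurons, was at 77.8 and 132 CPM in WT, 109 and 83.9 CPM in Tau and 91.3 and 94.6 CPM in UNC0642-treated mice. The WT replicates held both its lowest and its highest value, 1.70-fold apart. The log2 difference between Tau and WT, -0.12 ± 0.20, was therefore decided by 1 library: it was -0.45 without the library labelled WT replicate 1 and 0.32 without WT replicate 2, and was called in opposite directions. Its paralogue Cux1 (chromosome 5, 136248135 to 136567490, minus strand) was at 87.8 and 96.7 CPM in WT, 85.5 and 79.8 CPM in Tau and 83.2 and 75.2 CPM in UNC0642-treated mice. Cux1 was lower in both Tau libraries than in both WT libraries, but by a log2 difference of only -0.16 ± 0.091 (adjusted p = 0.505, edgeR).

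Rorb (chromosome 19, 18930605 to 19111196, minus strand), the nuclear receptor that drives the clustering of layer 4 neurons, was at 74.3 and 101.8 CPM in WT, 94.7 and 61.0 CPM in Tau and 100.8 and 77.4 CPM in UNC0642-treated mice. All 3 groups overlapped, and the Tau replicates were 1.55-fold apart. Its difference between Tau and WT, -0.17 ± 0.21 in log2, was -0.53, and called, without Tau replicate 1 and 0.11 without Tau replicate 2. In all, 2 of the 9 factors were higher and 1 was lower in Tau than in WT with no overlap of the libraries, where 43.2% of all genes did not overlap, 21.9% higher and 21.4% lower.

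**Figure D2:**
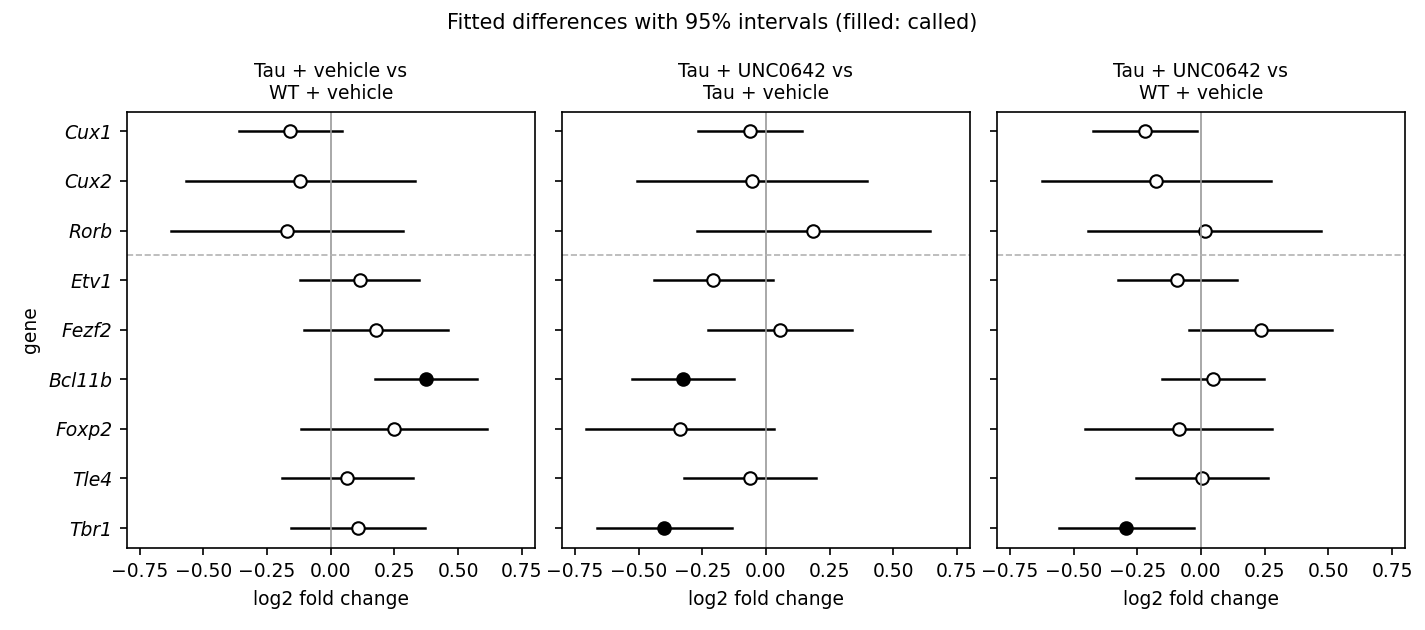
Fitted log2 fold changes of the 9 layer factors in the 3 comparisons. The x axis is the log2 fold change, bars are 95% intervals of edgeR's model over all 6 libraries, and filled points were called (unadjusted p below 0.05, change of 1.2-fold or more). Called were Bcl11b at 0.37 and -0.33 in the first 2 comparisons and Tbr1 at -0.40 and -0.29 in the last 2.

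The effect of the drug was addressed within the Tau mice. Of the 9 factors 2, Bcl11b and Tbr1, were called, both lower. Of all genes 7.69% were called, 3.73% higher and 3.95% lower. With Benjamini-Hochberg adjustment none passed, as against 0.0196% of all genes, and at an unadjusted p-value under 0.05 with any fold the same 2 factors and 8.86% of all genes did. This comparison shares the 2 Tau libraries with the first one, so the values of Bcl11b in both are not independent. The study itself lists Bcl11b, from the same data, among the genes that rose in Tau mice and that UNC0642 reversed. It also lists the striatal markers Drd1, Drd2, Adora2a, Ppp1r1b, Rgs9, Pde10a, Penk and Tac1 there. The calls of these genes in both comparisons are therefore not separate evidence.

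Bcl11b fell in UNC0642-treated mice by 0.33 on the log2 scale (SE 0.090, 95% interval -0.53 to -0.13), with an unadjusted p = 0.00455 and, in edgeR, an adjusted p = 0.395. The decrease was larger without Tau replicate 2, at -0.43, and smaller without Tau replicate 1, at -0.21, where the call was lost. The 2 UNC0642 libraries differed by 1.00-fold in Bcl11b. Beside this, 8 of 9 striatal markers tested were also called lower, with a median log2 fold change of -0.87, and their part in the Bcl11b decrease was not tested either.

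Tbr1 fell by 0.40 on the log2 scale (SE 0.12, 95% interval -0.66 to -0.13), from 80.9 and 83.5 CPM to 66.6 and 58.2 CPM. Its unadjusted p-value was 0.00743 and its adjusted p-value 0.421 in edgeR. The Tau replicates were 1.03-fold apart, and the change was -0.42 without Tau replicate 1 and -0.38 without Tau replicate 2. It was -0.30 without UNC0642 replicate 2, where the call was lost. Foxp2, Etv1 and Rorb were not called: their log2 differences were -0.34 ± 0.17 (adjusted p = 0.596), -0.21 ± 0.11 (adjusted p = 0.602) and 0.19 ± 0.21 (adjusted p = 0.840, edgeR). Foxp2 and Etv1 were each lower in both UNC0642 libraries than in both Tau libraries, and Foxp2 was at -0.58, and called, without Tau replicate 1 and -0.07 without Tau replicate 2. Cux1, Cux2, Fezf2 and Tle4 had log2 differences between -0.06 and 0.06, and the widest 95% interval among them, that of Cux2, ran from -0.51 to 0.40. In all, 4 factors did not overlap between the groups and were lower, and none was higher, where of all genes 41.3% did not overlap, 20.4% higher and 20.9% lower.

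Both Tau libraries showed the Xist pattern of females and both UNC0642 libraries that of males, so treatment and sex cannot be told apart by these libraries. Tbr1 was at 67.1, 66.6 and 58.2 CPM in the libraries of the male pattern, WT replicate 1 and both UNC0642 libraries. In those of the female pattern, WT replicate 2 and both Tau libraries, it was at 85.6, 80.9 and 83.5 CPM. In a fit with a term for the Xist pattern, which rests on the difference between the 2 WT libraries alone, Tbr1 was at -0.05 and Bcl11b at -0.27, and neither was called. Cux2 was then at 0.71 and Tle4 at -0.41, both called. The difference between the WT libraries on which that term rests is also that between the library with olfactory bulb markers and the other.

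**Figure D3:**
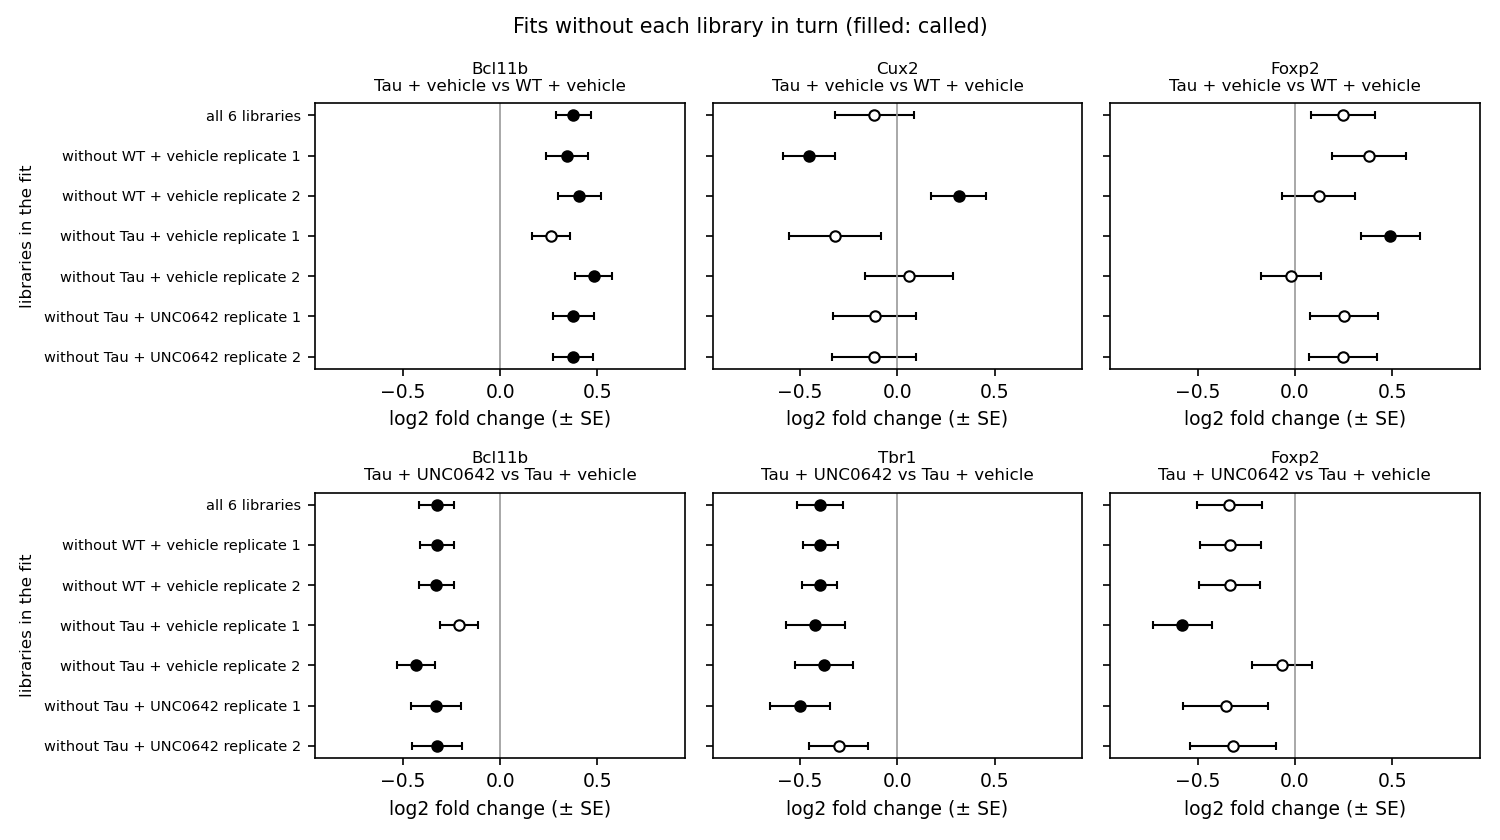
Log2 fold changes of 4 factors when each library is left out in turn. The x axis is the log2 fold change with its SE, rows are the libraries in the fit, and filled points were called. Bcl11b keeps its direction in each panel and is not called without Tau replicate 1, Cux2 moves from -0.45 to 0.32 with the WT library left out, and Foxp2 is near 0 without Tau replicate 2.

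The third comparison set UNC0642-treated Tau mice against WT mice, which shares libraries with both others. One of the 9 factors, Tbr1, was called and was lower, where 9.47% of all genes were called, 3.77% higher and 5.69% lower. With Benjamini-Hochberg adjustment none passed, and 0.216% of all genes did. Without the fold limit 2 factors, Tbr1 and Cux1, had an unadjusted p-value under 0.05, as did 12.1% of all genes. The log2 difference of Tbr1 was -0.29 ± 0.12 (unadjusted p = 0.0335, adjusted p = 0.366, edgeR). It was -0.46 without the library labelled WT replicate 1, and -0.11, with the call lost, without WT replicate 2. The call was also lost without UNC0642 replicate 2, at -0.20, with the replicate block, at -0.29, and with the term for the Xist pattern, at -0.11. In this comparison that term sets the UNC0642 libraries against WT replicate 1 alone, as does the fit without WT replicate 2. Those fits are therefore not separate checks. Bcl11b had a log2 difference from WT of 0.05 ± 0.090, with a 95% interval from -0.15 to 0.25, and both UNC0642 libraries lay just above both WT libraries. Cux1 was lower in both UNC0642 libraries than in both WT libraries, by a log2 difference of -0.22 ± 0.091 with an unadjusted p = 0.0361 (adjusted p = 0.375, edgeR), a fold change under the limit of 1.2. Fezf2 was at 0.23 ± 0.13 (adjusted p = 0.498, edgeR), and the other 5 factors lay between -0.17 and 0.02. In all, 1 factor was higher and 2 were lower with no overlap between the groups, where 44.4% of all genes did not overlap, 22.1% higher and 22.3% lower.

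Without the 2 libraries that stand apart, WT replicate 1 and Tau replicate 2, left out together only once their markers had been seen, 1 WT and 1 Tau library remained and the spread came from the UNC0642 pair alone, with 1 residual degree of freedom. The log2 differences are given as values for that reason. Between Tau and WT, Bcl11b was at 0.45, Fezf2 at 0.28, Cux2 at -0.27, Cux1 at -0.17 and Rorb at -0.10, and Etv1 and Tbr1 were at -0.03 and -0.08, so that the deep layer factors no longer all lay above 0. Between UNC0642-treated and untreated Tau mice, Bcl11b was at -0.43, Tbr1 at -0.38, Cux2 at -0.23 and Foxp2 at -0.07. Tbr1 was at -0.46 between UNC0642-treated Tau and WT mice, against -0.29 with all libraries.

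The balance of upper and deep layer factors was then described per library, as the mean log2 CPM of the 3 upper factors minus that of the 6 deep factors. In WT mice it was 0.57 in replicate 1 and 1.06 in replicate 2. The Tau libraries had 0.73 and 0.25, and those with UNC0642 had 0.84 and 0.63. The WT library with olfactory bulb markers was the lower of its pair, and the Tau library with striatal and oligodendrocyte markers was the lowest of all. The same held for the 11 other upper layer genes minus the 11 genes of layers 6 and 6b, at 1.46 and 2.28 for WT, 1.90 and 1.22 for Tau mice and 2.02 and 1.93 with UNC0642. Summed levels of oligodendrocyte markers, cells that are most frequent in white matter under layer 6, were 2915 and 1431 CPM in WT, 2009 and 5423 CPM in Tau and 2082 and 2225 CPM in UNC0642-treated mice. The highest upper minus deep value was in the library with the lowest oligodendrocyte sum and the lowest value in the library with the highest sum. The part of the dissected tissue in these differences was not tested.

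**Figure D4:**
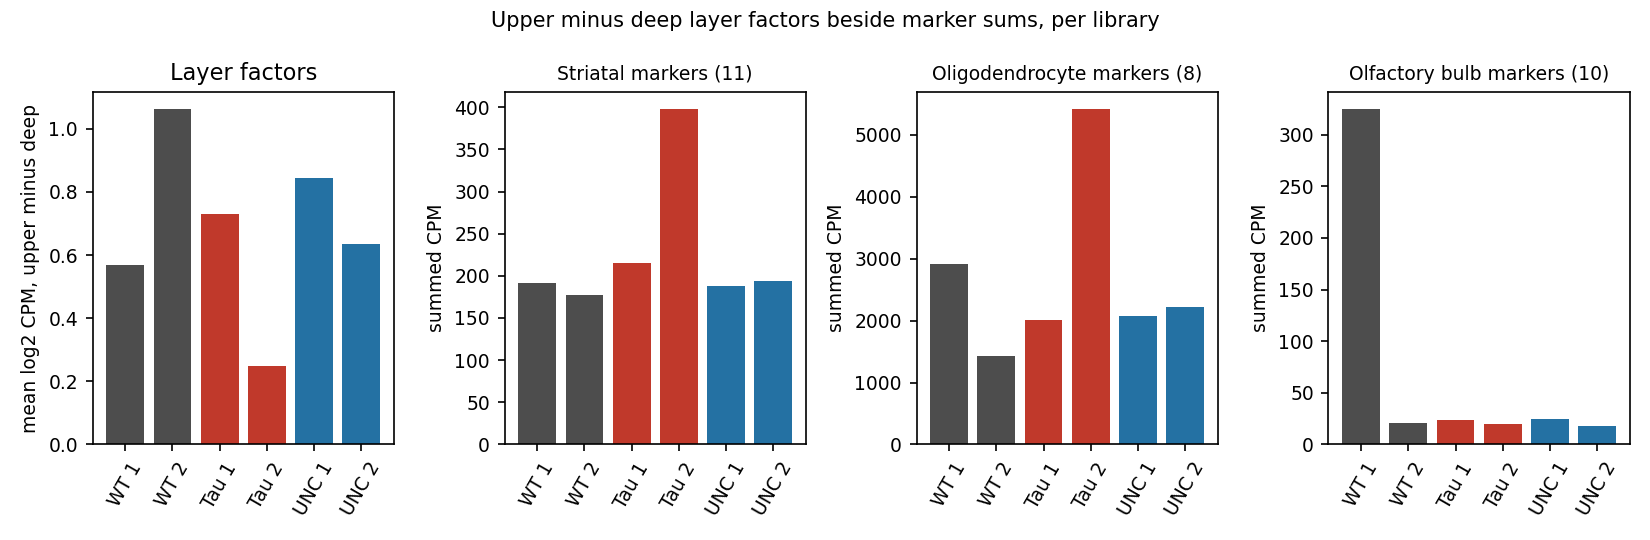
Upper minus deep layer factors beside marker sums in each library. The first panel shows the mean log2 CPM of 3 upper factors minus that of 6 deep factors, and the others show summed CPM of striatal, oligodendrocyte and olfactory bulb markers, with UNC for Tau + UNC0642. Tau replicate 2 has the lowest balance, 0.25, and the highest striatal and oligodendrocyte sums, and the olfactory bulb sum is 325 CPM in the library labelled WT replicate 1.

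Other genes of the cortical layers were taken from 6 lists with 63 genes, of which 61 were tested. Between Tau and WT mice 8 of these 61 were called, 5 higher and 3 lower, against 9.81% of all genes, and none by adjusted p-value. The median log2 fold change was 0.06 over the lists, beside 0 over all genes. Among 12 layer 5 genes 1 was called, the repressor gene Bcl6, which was at 17.9 and 18.2 CPM in WT, 28.3 and 25.8 CPM in Tau and 26.1 and 26.9 CPM in UNC0642-treated mice. Bcl6 rose by 0.59 ± 0.11 in log2 (unadjusted p = 0.000287, adjusted p = 0.0915, edgeR), and was called in the fit without each library. Both WT libraries lay below all 4 libraries with the transgene label.

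Among 11 genes of layers 6 and 6b, 8 had a log2 fold change above 0, the median was 0.22, and 2 were called, both higher. The summed level of the 11 genes was 303 and 241 CPM in WT, 270 and 334 CPM in Tau and 272.1 and 275.2 CPM in UNC0642-treated mice. Of the 11 genes 6 were highest in Tau replicate 2, the library with the highest striatal and oligodendrocyte markers, whose part in this was not tested. Nr4a2, an orphan nuclear receptor of layer 6b and also an activity-dependent gene, was at 8.0 and 5.74 CPM in WT, 11.1 and 13.1 CPM in Tau and 11.9 and 12.5 CPM in UNC0642-treated mice, a rise of 0.81 ± 0.19 in log2 in Tau mice (unadjusted p = 0.00143, adjusted p = 0.187, edgeR). Moxd1, a monooxygenase-like gene, rose by 0.50 ± 0.15 in log2, from 7.25 and 7.69 to 10.6 CPM in both Tau libraries, and both genes stayed called without each library. After UNC0642 the log2 differences from untreated Tau mice were 0.02 ± 0.18 for Nr4a2 and -0.07 ± 0.15 for Moxd1, and neither was called.

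Of 11 upper layer genes, Lamp5, a gene of layer 2 and 3 neurons and of interneurons, was called higher (0.30 ± 0.13, adjusted p = 0.394), and Mdga1, an adhesion gene of layers 2 and 3, was called lower (-1.16 ± 0.36, adjusted p = 0.289, edgeR). Both rested on the library labelled WT replicate 1: Lamp5 was at 93.2 CPM there and at 129 to 142 CPM in the other 5, and Mdga1 was at 18.0 CPM there and at 4.92 to 9.0 CPM in the others. Without that library they were at 0.08 and -0.34, and neither was called. Lamp5 was also not called without Tau replicate 1 or either UNC0642 library. No gene of the layer 4 list, 4 of 5 of which were tested, and none of the 12 pan-pyramidal genes was called.

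Relatives of the 9 factors from the same gene families moved in both directions. Etv5, a close relative of Etv1 and also a gene of astrocytes, was at 98.9 and 101.5 CPM in WT and at 128 to 129 CPM in all 4 Tau and UNC0642 libraries, a rise of 0.36 ± 0.073 in Tau mice (unadjusted p = 0.000525, adjusted p = 0.129, edgeR) that was called without each library. Foxp4, a relative of Foxp2, was at 13.6 and 15.9 CPM in WT, 12.5 and 10.2 CPM in Tau and 8.17 and 7.76 CPM in UNC0642-treated mice. It fell in Tau mice by 0.37 on the log2 scale (unadjusted p = 0.0388, adjusted p = 0.383, edgeR) and was not called without WT replicate 2, Tau replicate 2 or UNC0642 replicate 1. Eomes, the T-box relative of Tbr1 and a gene of olfactory bulb mitral and tufted cells, was at 12.9 CPM in the library labelled WT replicate 1 and at 0.0715 to 0.474 CPM in the other 5. Its call in Tau mice, at -5.53 ± 1.65 in log2, was not made without that library, at 0.78, or without Tau replicate 1, at -4.78.

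After UNC0642, 5 of the 61 layer list genes were called, all lower, against 7.69% of all genes, and none by adjusted p-value. The median log2 fold change over the lists was -0.09, and 42 of the 61 were below 0. Over all genes the median was -0.002, with quartiles of -0.15 and 0.16. Ntsr1, the neurotensin receptor of layer 6 corticothalamic neurons, was at 5.24 and 5.70 CPM in WT, 6.01 and 4.58 CPM in Tau and 3.20 and 2.65 CPM in UNC0642-treated mice, and fell by 0.87 on the log2 scale (SE 0.24, unadjusted p = 0.00498, adjusted p = 0.395, edgeR). Both UNC0642 libraries lay below all others, and the call was not made without Tau replicate 1 (-0.65). Foxp4 fell by a further 0.52 (SE 0.17, unadjusted p = 0.0103, adjusted p = 0.432, edgeR), and was not called without Tau replicate 1 (-0.36) or UNC0642 replicate 2 (-0.48).

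The other 3 genes called were each lost without at least 2 of the libraries. Neurod2, a bHLH factor of cortical pyramidal neurons, was at 57.8 and 67.6 CPM in WT, 84.0 and 66.9 CPM in Tau and 62.8 and 58.1 CPM in UNC0642-treated mice, with a log2 difference of -0.32 ± 0.12 (adjusted p = 0.499, edgeR) that was -0.15 without Tau replicate 1. Pou3f1, a POU factor of layer 5 neurons, fell by 0.39 on the log2 scale (SE 0.18, adjusted p = 0.561, edgeR), and by 0.22 without Tau replicate 1. Cplx3, a complexin of layer 6b neurons, was at 17.9 CPM in Tau replicate 2 and at 7.58 to 10.2 CPM in the other 5 libraries, and its difference of -0.72 ± 0.28 (adjusted p = 0.513, edgeR) was -0.18 without that library. With the term for the Xist pattern, 4 of the 5 genes were not called, and Cplx3 was, at -1.14.

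Between UNC0642-treated Tau and WT mice 16 of the 61 layer list genes were called, 7 higher and 9 lower, against 9.47% of all genes, and none by adjusted p-value. Of the genes named above, Bcl6, Nr4a2, Moxd1, Etv5 and Lamp5 were higher, at 0.56 ± 0.11, 0.83 ± 0.19, 0.43 ± 0.15, 0.36 ± 0.073 and 0.34 ± 0.13 in log2. Foxp4, Ntsr1 and Eomes were lower, at -0.89 ± 0.16, -0.91 ± 0.24 and -4.61 ± 1.53 (edgeR). Eomes was at 12.9 and 0.0781 CPM in WT replicates 1 and 2 and at 0.474 and 0.0882 CPM with UNC0642. Lamp5 was at 93.2 and 129 CPM in WT replicates 1 and 2 and at 140.2 and 142.3 CPM with UNC0642. For these genes, fits without each library are not given in this comparison. The called genes came from all 6 lists, with 5 among the family relatives, 3 among the genes of layer 5, 3 in layers 6 and 6b, 3 pan-pyramidal genes, and 1 each of the upper layer and layer 4 lists. The median over the 61 was -0.04, beside -0.01 over all genes.

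For the 3 factors with the widest range over the libraries, the genes with the most similar course were sought among 16369 genes with a mean of at least 1 CPM, by the root mean square difference of log2 CPM after each gene was centred on its mean over the 6 libraries. For Cux2 these were Panct2, with a difference of 0.03, and Rflnb, with 0.05, where Cux2 itself deviated from its mean by 0.25. Panct2 was at 6.03 and 10.5 CPM in WT, 8.80 and 6.58 CPM in Tau and 7.28 and 7.76 CPM in UNC0642-treated mice, which has the same lowest and highest library as Cux2. For Rorb they were Gm16353 (0.08) and Abhd17c (0.09), against a deviation of 0.27 of Rorb itself. For Foxp2 they were Gm4617 and Slain1, both at 0.05 against 0.21, and Slain1 was at 43.3 CPM in Tau replicate 2 and at 30.0 to 32.8 CPM in the other 5 libraries. These likenesses rest on 6 libraries, 2 of which stand apart, and are given as a description.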

How the data were processed

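Bulk PFC RNA was sequenced in 6 libraries, 2 per group. Per the labels and the study's methods, the authors made stranded libraries depleted of ribosomal RNA, trimmed reads with Cutadapt, aligned them with TopHat2 and deposited raw counts per gene from featureCounts. The submitters' processing notes also name SAMtools, edgeR and the build mm10. The strand setting of the counting is not given in the sources used here. Of annotated neighbours, only the antisense gene Gm16599 shares exon bases with a layer factor (Cux1, 13 counts over all libraries against 11598).

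Symbols were matched to GENCODE M21 (53739 of 54429 to a single gene). For 26 names that had become dates in 2 of the libraries, rows were joined by position. The filter filterByExpr (minimum count 10, minimum total 15) kept 20409 genes. A quasi-likelihood fit of all 6 libraries by group (edgeR 4.0.16, R 4.3.3) used TMM scaling (factors 0.966 to 1.04), with 3 residual degrees of freedom and a biological coefficient of variation of 12.3%. Calls required an unadjusted p-value below 0.05 and a change of 1.2-fold or more, as in the study. Adjustment was by Benjamini-Hochberg across the genes tested. Errors of log2 fold changes are SEs of the fit with 95% intervals, and other errors are SDs over libraries. RPKM used the union of annotated exons. The labels describe the duplicates only as biological, so p-values measure the spread between these libraries.

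The 9 factors and all lists were chosen with earlier results of these data known. The genes named were the 9 factors and, from each layer list, those called in the first or second comparison (at most 3 in each, by p-value). Single genes of other cell types set beside a factor, and the 2 nearest genes of the 3 factors with the widest range, were also named. Xist, Prnp, Mapt, Ehmt1 and Ehmt2 were named as checks. Alternatives were DESeq2 1.42.0 and its size factors, limma-voom (limma 3.58.1), library size in place of TMM, other filters, the compared groups alone, a replicate block, a term for libraries with over 100 Xist counts, other thresholds, and fits without each library. The fit was tested on simulated data. Figures were drawn with matplotlib 3.10.9 (Python 3.11.15).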

Additional observations from a re-analysis of the deposited data

How the results depend on the processing

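The factors had 402 counts or more in every library, and the effect of depth was not tested. Counts of called genes are given in the order Tau against WT, UNC0642-treated against untreated Tau, and UNC0642-treated Tau against WT. The share of all genes called in each alternative fit is not given beside the counts, here or in the next paragraph. The counts therefore describe the fits and are not results about the layer genes. Without each library in turn, 1 to 3, 2 to 4 and 0 to 3 of the 9 factors were called (1, 2 and 1 with all libraries), and 6 to 19, 3 to 8 and 10 to 22 of the layer list genes (8, 5 and 16). The most factors were called without WT replicate 2 in the first comparison, without Tau replicate 1 in the second, and without WT replicate 1 or UNC0642 replicate 1 in the third comparison, where none was without WT replicate 2 or UNC0642 replicate 2. The most list genes, 19 and 22, were called without WT replicate 2 in the first and the third comparison, and 8 in the second without any 1 of the WT or Tau libraries, and the fewest, 3 and 10, without UNC0642 replicate 2. Without both libraries that stand apart, 2 factors were called in the first and 4 in the third comparison, and 11 list genes in the second. That fit held 1 WT and 1 Tau library, and its spread came from the UNC0642 pair alone, with 1 residual degree of freedom. Its calls measure no spread within the WT or the Tau group, so no conclusion is drawn from its counts. At a fold change of at least 1.5 the factors called were 0, 0 and 0 and the list genes 4, 2 and 5, and by adjusted p-value in edgeR 0 in all 6 counts. With no fold limit, at an unadjusted p-value under 0.05, there were 1, 2 and 2 factors and 9, 7 and 18 list genes. DESeq2 and limma-voom each called 1, 2 and 1 factors by the rule used. With no filter 10 and with limma-voom 3 list genes were called in the second comparison.

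The term for the Xist pattern, fitted with 2 residual degrees of freedom, called 2 factors in the first and 0 in the third comparison and 14 list genes in the second. It turned Tbr1 to -0.060 in the first comparison, Cux1 to 0.078, Cux2 to 0.71 and Fezf2 to -0.057 in the second, and Cux2 to 0.26 and Tle4 to -0.16 in the third. The correlations of replicate differences between groups were -0.034, -0.0033 and -0.021, so no shared effect of replicate number was seen over the genes. Whether libraries of the same number were handled together cannot be told from these values. With a replicate block 0 factors were called in the third comparison, where Rorb turned to -0.0088, and the block changed no other call of a factor. Library size in place of TMM turned Tle4 to -0.0046 in the first comparison and Rorb to -0.022 and Tle4 to -0.037 in the third, and a minimum of 10 counts in every library turned Tle4 to -0.0094 there.

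Log2 fold changes of factors that changed sign without 1 library ranged, in the first comparison, from -0.45 to 0.32 for Cux2, from -0.53 to 0.11 for Rorb, from -0.022 to 0.49 for Foxp2, from -0.10 to 0.25 for Tle4 and from -0.063 to 0.29 for Tbr1. In the second they ranged from -0.14 to 0.010 for Cux1, from -0.23 to 0.15 for Cux2, from -0.095 to 0.54 for Rorb, from -0.13 to 0.22 for Fezf2 and from -0.15 to 0.022 for Tle4, and in the third from -0.51 to 0.26 for Cux2, from -0.20 to 0.26 for Rorb, from -0.21 to 0.048 for Foxp2 and from -0.16 to 0.19 for Tle4. Bcl11b and Tbr1 kept their direction in the comparisons in which they were called, over all 15 alternative fits. The cause of these changes was not tested.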
